A study of Homo sapiens with 8 samples.

Results

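The genes described here encode respiratory complexes II to V, the part of oxidative phosphorylation that follows complex I. They were defined by symbol, as nuclear protein-coding genes of GENCODE. Their names begin with COX and a digit, UQCR, UQCC, ATP5 or SDHAF, and SDHA, SDHB, SDHC and SDHD are included. Of 20033 nuclear protein-coding genes, 69 had such a name. The naming rule uses no peak, but the set was chosen with earlier results of these data known. The data were ChIP-Seq peaks of PHF20 and of its homolog PHF20L1, both subunits of NSL histone acetyltransferase complexes, in U2OS, a human osteosarcoma cell line. Each protein was over-expressed with a 3xHA tag in cells sorted by GFP for its expression, and chromatin was isolated with an HA antibody. PHF20 had 2 ChIP libraries and 1 input, all from cells with the tag at the N terminus, whereas PHF20L1 had 3 ChIP libraries (1 with an N-terminal and 2 with a C-terminal tag) and 2 inputs. The deposited values are the start and end of 4147 PHF20 peaks and 723 PHF20L1 peaks on hg38. Per the study's methods, each final list holds the peaks of the best replicate that overlapped peaks of the other replicates. No separate values per replicate, no read count and no spread between replicates existed to test against. Absence from a list does not show absence of the protein. A gene is called bound where a peak reached into the promoter window, 1000 bp before and 500 bp after the transcription start site (TSS), of any of its transcripts. Shares carry Wilson 95% intervals, which cover counting error over genes only.

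Complexes II to IV pass electrons from succinate or ubiquinol to oxygen, and complex V, the ATP synthase, uses the proton gradient that complexes III and IV help build. Their subunits come from the nuclear and the mitochondrial genome, except for complex II, which is wholly nuclear, and each complex needs assembly factors, many of which do not stay in the finished enzyme. In complexes II to IV, some of these factors insert heme, copper, flavin or iron-sulfur clusters. Nuclear genes of this system are textbook targets of the transcription factors NRF1, GABP (an ETS factor, also called NRF-2) and YY1, and several COX subunits exist as a ubiquitous form and a second form made mainly in muscle, lung or testis.

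PHF20 peaks lay at 30 of the 69 genes, PHF20L1 peaks lay at 4, and 39 genes had neither. The PHF20 share was 43.5% (32.4% to 55.2%), against 20.7% of all nuclear protein-coding genes. The PHF20L1 share was 5.8% (2.28% to 14%), against 3.82% of all genes, and the interval includes that background. All 4 genes with a PHF20L1 peak also had a PHF20 peak, as did 747 of the 766 genes with a PHF20L1 peak among all genes. Genes with both made up 3.73% of all genes. Without the 6 tissue-restricted COX isoforms, the 2 retrocopies UQCRHL and ATP5MGL and the readthrough gene ATP5MF-PTCD1, which shares the ATP5MF peak, PHF20 was found at 29 of 60 genes (48.3%, 36.2% to 60.7%). For the 39 genes without a peak, the nearest PHF20 peak lay between 7855 bp and 3954737 bp from the canonical TSS, with a median of 85518 bp and none within 5000 bp. A PHF20L1 peak lay within that distance of 1 of them, ATP5IF1, at -2971 bp.

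**Figure D1:**
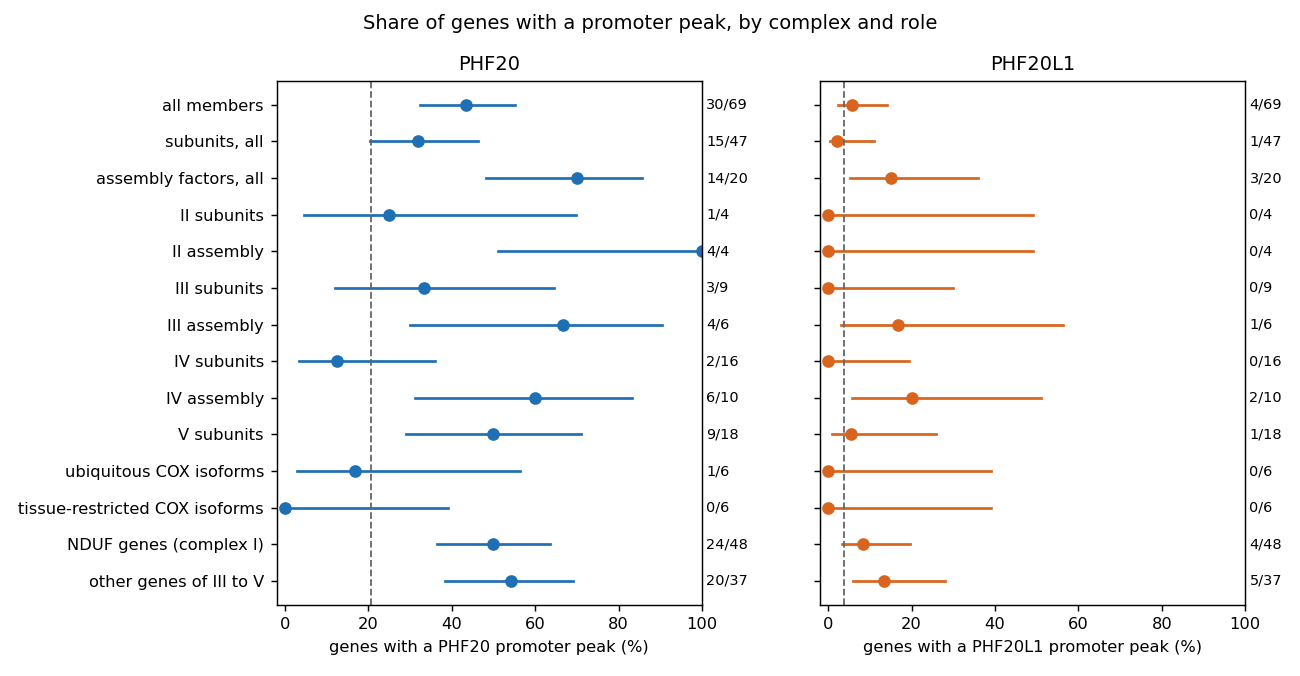
Percentage of genes with a PHF20 (left) or PHF20L1 (right) promoter peak in each class, with Wilson 95% intervals as lines, bound and total genes at the right edge and the share over all nuclear protein-coding genes as a dashed line (20.7% and 3.82%). Assembly factors stand at 14 of 20 for PHF20 and subunits at 15 of 47. Complex IV subunits at 2 of 16 are the only complex's subunit class below the dashed PHF20 line, with an interval that includes it (3.5% to 36%). Without the tissue-restricted isoforms they stand at 2 of 10 (20%, 5.67% to 51%, not drawn).

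The counts were then divided by role. Of 20 assembly factors, 14 were bound by PHF20 (70%, 48.1% to 85.5%), and of 47 subunit genes, 15 were bound (31.9%, 20.4% to 46.2%). These intervals do not overlap, but genes are not replicates and the difference carries no test. The 8 subunit genes that are tissue-restricted isoforms or retrocopies had no peak, and without them 15 of 39 subunit genes were bound (38.5%, 24.9% to 54.1%), an interval that overlaps that of the assembly factors. All 39 of these subunit promoters and all 20 assembly factor promoters were CpG-rich by the ratio described below. Under the other rules tried for TSS, window, overlap and peak width, 11 to 14 assembly factors and 13 to 15 subunit genes were bound.

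In complex II, which oxidizes succinate to fumarate and is shared with the citric acid cycle, 5 of 8 genes were bound by PHF20 (62.5%, 30.6% to 86.3%). PHF20L1 bound 0 (Wilson interval 0% to 32.4%), where 3 counts would make a share of 37.5%. All 4 assembly factors were bound, and of the 4 subunits only SDHC was. The peak at SDHAF3, a factor for the iron-sulfur subunit, spanned chr7:97116953-97118016 (1064 bp) with its centre at -214 bp from the TSS, where negative values lie upstream. SDHC, which encodes a membrane anchor subunit, had a peak at chr1:161313833-161314625 (793 bp) centred at -152 bp. These peaks were wider than 86.4% and 67.3% of the PHF20 list. The peak at SDHAF2, the factor that attaches flavin to SDHA, spanned chr11:61429824-61430565 (742 bp). It lay in a promoter shared with the divergent gene CPSF7, whose TSS is 149 bp away. The peak centre lay 44 bp from the TSS of another protein-coding gene and 50 bp from the nearest TSS of SDHAF2. The list therefore cannot assign this peak to SDHAF2 alone. The peak at SDHAF1 was 741 bp wide and that at SDHAF4 579 bp wide, the latter starting 15 bp downstream of the canonical TSS. The catalytic subunits SDHA and SDHB and the anchor SDHD had no peak, and the nearest PHF20 peak to SDHD lay at -12020 bp.

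In complex III, the cytochrome bc1 complex, 7 of 15 genes were bound by PHF20 (46.7%, 24.8% to 69.9%). Assembly factors made up 4 of them (UQCC1, UQCC3, UQCC4 and UQCC6, not UQCC2 and UQCC5) and subunits 3 (the core protein UQCRC2, the Rieske iron-sulfur protein UQCRFS1 and the hinge protein UQCRH, of 9). The peak at UQCRH was the widest of the complex, at chr1:46302547-46303942 (1396 bp), but its centre lay 18 bp from the TSS of the divergent gene LRRC41 and -454 bp from that of UQCRH. UQCRH and LRRC41 start 82 bp apart, so the list cannot assign the peak to either. The peak at UQCC1, which acts in cytochrome b assembly, spanned chr20:35411153-35412490 (1338 bp) and was wider than 96.5% of PHF20 peaks. UQCRFS1 had a peak of 984 bp, and the assembly factors UQCC4 and UQCC3 had peaks of 770 and 719 bp. At UQCRC2 the 669 bp peak ended at -253 bp, upstream of the canonical TSS. Subunits without a peak were UQCRC1, UQCRB, UQCRQ, UQCR10, UQCR11 and UQCRHL. UQCRHL, an intronless retrocopy of UQCRH, had a CpG-poor promoter, and its nearest PHF20 peak lay at -168151 bp.

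Complex IV, the cytochrome c oxidase, had 8 of 26 genes bound by PHF20 (30.8%, 16.5% to 50%). Of its 10 assembly factors, 6 were bound (60%, 31.3% to 83.2%), and of its 16 subunit genes, 2 were bound (12.5%, 3.5% to 36%). Without the tissue-restricted isoforms, 2 of 10 subunit genes were bound (20%, 5.67% to 51%), near the 20.7% of all genes. The bound factors were COX15 (heme A synthesis), the copper proteins COX17 and COX19, COX16 and COX18 (maturation of the subunit COX2) and COX7A2L (supercomplex assembly), and the unbound were COX10 (the step before COX15 in heme A synthesis), COX11, COX14 and COX20. The bound subunits were COX4I1 and COX6C. Of the heme A genes, COX15 had a peak of 623 bp over its TSS and COX10 had its nearest at -1051209 bp. The COX15 peak was centred nearest to a COX15 TSS. It also fell in the promoter windows of the divergent gene CUTC, whose TSS is 107 bp away, and of another protein-coding gene, so the list cannot assign it to COX15 alone. COX16 had the widest PHF20 peak of all 69 genes, at chr14:70359121-70360535 (1415 bp, wider than 97.7% of the list), and COX18 had a peak at chr4:73069121-73070299 (1179 bp) centred 6 bp from its TSS. COX6C, a small accessory subunit, had a peak of 977 bp, and those at COX7A2L (592 bp) and COX19 (548 bp) were the narrowest of the complex. A further PHF20 peak at chr14:70416534-70417360 was counted for COX16 through an alternative start that it shares with the SYNJ2BP-COX16 readthrough, far upstream of the canonical TSS.

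The 6 pairs of ubiquitous and tissue-restricted COX isoforms gave 1 bound gene of 12. COX4I1, the ubiquitous form of subunit 4, had a PHF20 peak at chr16:85799080-85800227 (1148 bp) centred on a TSS of the gene, in a promoter shared with EMC8, whose TSS is 151 bp away. Its lung form COX4I2 had none, and the nearest PHF20 peak lay 84843 bp downstream of its TSS. The other 5 ubiquitous forms, COX6A1, COX6B1, COX7A2, COX7B and COX8A, had no peak of either protein. Neither did the muscle forms COX6A2 and COX7A1, nor COX6B2, COX7B2 and COX8C, which are known from testis. The nearest PHF20 peaks to COX6A1 (7855 bp), COX8A (11675 bp) and COX6B1 (-18595 bp) were outside every promoter window tried. For 0 of 6 tissue-restricted genes the Wilson interval is 0% to 39%, and 3 counts would make a share of 50%. The 1 of 6 ubiquitous genes is 16.7% (3.01% to 56.4%), so that the peak lists do not separate the isoform classes. They differed in base composition. From 500 bp before to 100 bp after the canonical TSS, the ratio of observed to expected CpG had a median of 0.829 in the ubiquitous genes (0.643 to 0.964) and 0.529 in the tissue-restricted genes (0.333 to 0.695), and the ranges overlapped at COX6B1, COX7A1 and COX6B2. Expression of these genes was not measured here.

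In complex V, 10 of 20 genes were bound by PHF20 (50%, 29.9% to 70.1%). Of its 18 subunit genes, 9 were bound (50%, 29% to 71%), which is the highest share of subunit genes among the 4 complexes. This interval overlaps those of the subunit genes of complexes II (4.56% to 69.9%), III (12.1% to 64.6%) and IV (3.5% to 36%). ATP5F1A, ATP5F1B and ATP5F1C, the alpha, beta and gamma subunits of the catalytic head, were bound, and ATP5F1D and ATP5F1E, its delta and epsilon subunits, were not. In the peripheral stalk, ATP5PF (factor 6) and ATP5PO (the oligomycin sensitivity protein) were bound, and ATP5PB and ATP5PD were not. The membrane subunits ATP5ME, ATP5MF and ATP5MJ were bound, and ATP5MG, ATP5MK and the retrocopy ATP5MGL were not. The c-ring subunit comes from 3 genes that encode the same mature protein, and of these only ATP5MC2 was bound, by a peak at chr12:53675700-53676334 (635 bp) centred 65 bp downstream of its TSS. The nearest PHF20 peak lay 14917 bp downstream of ATP5MC1 and 785279 bp downstream of ATP5MC3. The widest peaks of the complex were at ATP5PF (1230 bp), at ATP5F1C (chr10:7787612-7788773, 1162 bp, a promoter shared with KIN) and at ATP5F1A (chr18:46097974-46098921, 948 bp). The peaks at ATP5PO (818 bp), ATP5MF (795 bp), ATP5MJ (632 bp), ATP5F1B (501 bp) and ATP5ME (483 bp) were narrower, and ATP5ME shared its peak with the divergent gene MYL5. ATP5IF1, the inhibitor of the ATPase, had no promoter peak.

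PHF20L1 peaks lay at UQCC6, COX16, COX17 and ATP5PF. They were assembly factors apart from ATP5PF, which gives 3 of 20 assembly factors (15%, 5.24% to 36%) and 1 of 47 subunit genes (2.13%, 0.377% to 11.1%), and these intervals overlap. UQCC6, a small inner membrane protein needed for complex III assembly, had its PHF20L1 peak at chr12:103957100-103957637 (538 bp) over the TSS, inside a PHF20 peak at chr12:103956726-103957732 (1007 bp). At COX16 the PHF20L1 peak at chr14:70359594-70360034 (441 bp) also covered the TSS. At COX17, the copper chaperone that feeds complex IV, the PHF20L1 peak at chr3:119677091-119677368 (278 bp) began 38 bp downstream of the canonical TSS, inside a PHF20 peak at chr3:119676762-119678014 (1253 bp). ATP5PF starts 68 bp from GABPA, the DNA-binding subunit of GABP, on the opposite strand. The PHF20 peak at chr21:25734478-25735707 (1230 bp) covered both starts, but the PHF20L1 peak at chr21:25735203-25735672 (470 bp) was centred 48 bp from a GABPA TSS and 202 bp from the nearest TSS of ATP5PF. Each PHF20L1 peak lay wholly inside its PHF20 peak and covered 53.4% of it at UQCC6, 38.2% at ATP5PF, 31.2% at COX16 and 22.2% at COX17. The count of 4 depended on the rule, being 2 with the outermost TSS of each gene (UQCC6 and COX16 lost, a share of 2.9% against 3.21% of all genes), 3 with peaks of at least 300 bp (COX17 lost) and 3 where a peak counts only for the nearest gene (ATP5PF lost).

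The promoter sequences of these genes are shown for UQCC6 (chr12:103957255-103957375, minus strand), COX17 (chr3:119677456-119677556, minus strand) and ATP5PF (chr21:25734895-25734924, minus strand), to set the factor sequences of genes with both peaks side by side. All coordinates are hg38, sequences run 5′ to 3′ on the strand of the gene, and capitals mark 8-base sequences typical of the sites of known factors, searched on both strands. These were CCGGAAGT for ETS factors, GCATGCGC for NRF1, AAGATGGC for YY1 and CACGTGAC for E-box factors such as USF.
UQCC6: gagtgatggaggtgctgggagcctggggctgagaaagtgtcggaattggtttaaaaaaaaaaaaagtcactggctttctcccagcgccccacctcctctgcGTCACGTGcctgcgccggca
COX17: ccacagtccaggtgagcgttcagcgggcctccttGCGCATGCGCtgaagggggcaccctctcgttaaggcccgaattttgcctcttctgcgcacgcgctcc
ATP5PF: gcggagccagggCCGGAAGTagagcggagg
UQCC6 held an E-box sequence that begins at -59, COX17 an NRF1 site at -116 in which both strands match, and ATP5PF an ETS sequence at -8, next to its TSS. COX17 also held an ETS sequence at position 11, and ATP5PF an NRF1 and a YY1 sequence at -270 and -207. COX16 held none of the 4. The stretch searched, 500 bp before to 100 bp after the canonical TSS, lay wholly inside a PHF20 peak at all 4 genes with both proteins. That all 7 matches lay inside a PHF20 peak was therefore fixed in advance. Of these matches, 1, the E-box of UQCC6, lay inside a PHF20L1 peak. A match is a description of the letters and not evidence of a bound factor.

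**Figure D2:**
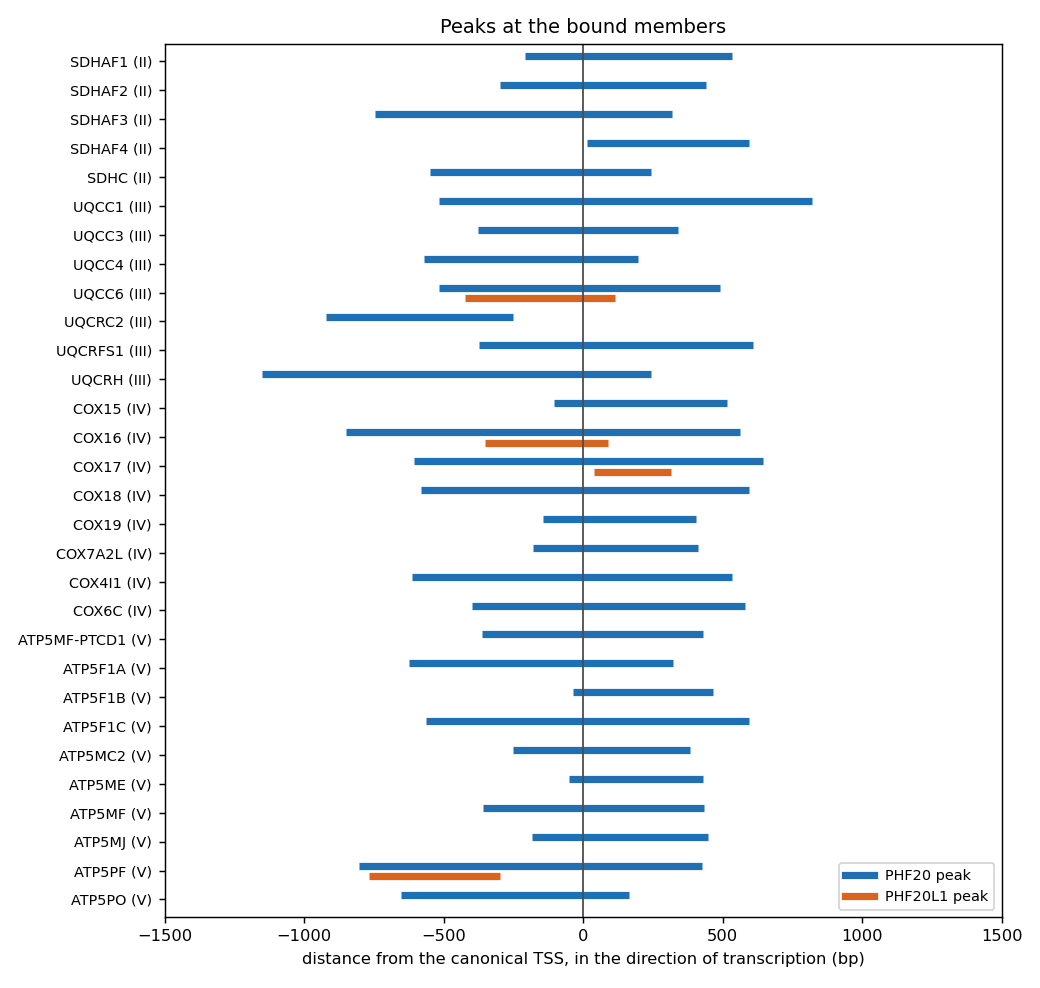
Extent of the PHF20 (blue) and PHF20L1 (orange) peaks at the 30 bound genes along the distance in bp from the canonical TSS, with the complex in brackets and peaks beyond 1500 bp not drawn. The TSS line falls within a PHF20 peak at 28 genes (not at SDHAF4 and UQCRC2), and the 4 PHF20L1 peaks lie within the PHF20 peaks of UQCC6, COX16, COX17 and ATP5PF. Over all 4148 PHF20-bound genes, the widest peak of the gene held the canonical TSS at 2618.

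Width is the only size that the deposited peaks carry. The widest PHF20 peak per bound gene ranged from 483 bp at ATP5ME to 1415 bp at COX16, with a median of 795 bp (quartiles 643.5 and 1127 bp), whereas the median over all 4148 bound genes was 682 bp (quartiles 448 and 962.2 bp). The 4 genes with both proteins had PHF20 peaks of 1007 to 1415 bp (median 1242 bp), and the 26 with PHF20 only had a median of 781.5 bp. The same order held over all genes, with medians of 989 and 614 bp. The ranges overlapped, since UQCRH (1396 bp), UQCC1 (1338 bp) and COX18 (1179 bp) had wide PHF20 peaks and no PHF20L1 peak. PHF20L1 peaks at the 4 genes were 278 to 538 bp wide (median 455.5 bp), and the median over all genes with one was 331.5 bp. Peak centres lay at a median of 96.5 bp from a TSS of the gene, downstream in 18 genes and upstream in 12. Over all bound genes the median was 115 bp, with 1948 downstream and 2189 upstream. Of the 32 distinct PHF20 peaks, 12 also fell in the promoter window of a protein-coding gene outside the 69, and 4 were nearest to the TSS of another gene. These include the second peaks counted for UQCC6, by the DNA repair gene TDG, and for ATP5F1A, by HAUS1. The widest peak of the gene was nearest to a TSS of that gene at 27 of the 30 bound genes. Over all 4148 bound genes this held at 3341. No share of peaks that fall in several promoter windows was computed over the whole list.

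The promoters were mostly CpG-rich. A ratio of observed to expected CpG of at least 0.6 was found in 63 of 69 promoters (91.3%), against 64.9% of all genes. All 30 bound promoters were CpG-rich, as were 92.1% of those of all PHF20-bound genes, and the 6 promoters below 0.6 were unbound and belonged to COX4I2 (0.526), COX6A2 (0.359), COX7B2 (0.533), COX8C (0.333), UQCRHL (0.344) and ATP5MGL (0.357). Over all genes without CpG-rich promoters, 4.69% had a PHF20 peak, so that 0 of 6 is near the background. Of the 63 CpG-rich genes, 47.6% had a PHF20 peak (35.8% to 59.7%), against 29.4% of all genes with CpG-rich promoters, and 6.35% had a PHF20L1 peak (2.5% to 15.2%), against 5.32%. Within the 69, the median ratio was 0.764 in the 30 bound and 0.769 in the 39 unbound genes, and COX5A, at a ratio of 1, had no peak. Head-to-head promoters, whose divergent protein-coding neighbour starts within 1000 bp, were also common, at 15 of 69 genes (21.7%, against 9.46% of all genes). PHF20 was found at 7 of these 15 (46.7%, 24.8% to 69.9%) and at 23 of the other 54 (42.6%, 30.3% to 55.8%), and over all genes with such a neighbour the share was 46.6%.

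**Figure D3:**
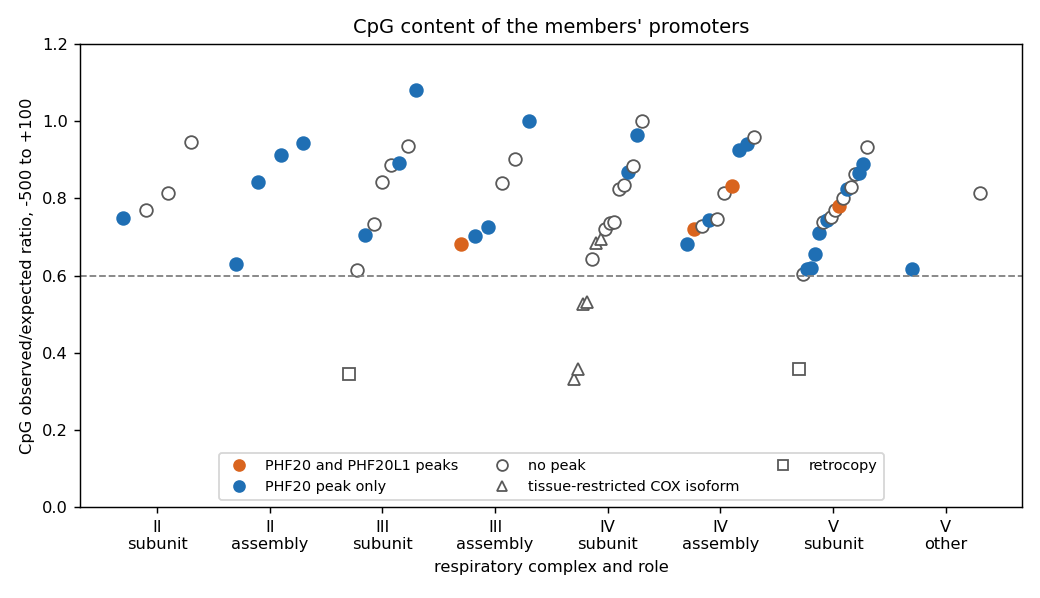
Ratio of observed to expected CpG from 500 bp before to 100 bp after the canonical TSS for each of the 69 genes, by complex and role, filled where a peak was present, with triangles for tissue-restricted COX isoforms, squares for retrocopies and a dashed line at 0.6. The 6 genes below the line are open symbols (no peak), and above it filled and open circles are mixed, with medians of 0.764 in bound and 0.769 in unbound genes.

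The sequences of factors known to act on these genes were present at both bound and unbound promoters. In the same stretch around the TSS, the ETS sequence was present at 15 of 69 genes (21.7%, 13.6% to 32.8%, against 7.01% of all genes), the NRF1 sequence at 14 (20.3%, 12.5% to 31.2%, against 5.36%), the YY1 sequence at 11 (15.9%, 9.14% to 26.3%, against 5.55%) and the E-box at 2 (2.9%, 0.799% to 9.97%, against 4.14%). At least 1 of the 4 occurred at 30 genes (43.5%, against 19.3%), of which 14 were among the 30 bound (46.7%, against 37.6% of all bound genes) and 16 among the 39 unbound (41%, against 14.5% of all unbound genes). Over all genes, a PHF20 peak was present at 54.8% of promoters with the ETS sequence and at 18.1% without it. Within the 69 genes the shares were 40% with it (6 of 15, 19.8% to 64.3%) and 44.4% without it (24 of 54, 32% to 57.6%). The NRF1 sequence went with a higher share, 57.1% (8 of 14, 32.6% to 78.6%) against 40% without it (22 of 55, 28.1% to 53.2%), but these intervals overlap widely, and over all genes the shares were 28.2% and 20.3%, in the same order. The YY1 sequence stood at 36.4% (4 of 11, 15.2% to 64.6%) against 44.8% without it (32.7% to 57.5%), where all genes stood at 40.1% and 19.6%. Where a bound gene held a match, it mostly lay inside a PHF20 peak, at 7 of 7 ETS, 10 of 12 NRF1, 5 of 5 YY1 and 1 of 2 E-box matches. A palindromic NRF1 site that matches on both strands counts as 2 matches. No expected share was computed for these counts. The canonical TSS lay in a PHF20 peak at 28 of the 30 bound genes, so a match near it would mostly fall inside one.

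Bound promoters with the ETS or NRF1 sequence are shown for COX18 (chr4:73069736-73069866, minus strand), COX15 (chr10:99732123-99732237, minus strand) and UQCRH (chr1:46303608-46303697, plus strand), all in the PHF20 list alone.
COX18: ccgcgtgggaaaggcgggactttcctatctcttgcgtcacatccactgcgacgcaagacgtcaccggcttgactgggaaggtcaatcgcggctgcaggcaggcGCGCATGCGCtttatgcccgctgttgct
COX15: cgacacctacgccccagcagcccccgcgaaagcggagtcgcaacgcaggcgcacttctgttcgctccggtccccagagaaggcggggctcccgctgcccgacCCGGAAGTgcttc
UQCRH: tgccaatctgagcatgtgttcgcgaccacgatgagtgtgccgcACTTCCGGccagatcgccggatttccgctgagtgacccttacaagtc
COX18 held the same NRF1 palindrome as COX17, at -47, and COX15 and UQCRH held the ETS sequence at -8 and -47.
Unbound promoters with the same sequences are shown for COX5B (chr2:97645912-97646066, plus strand), COX8A (chr11:63974520-63974619, plus strand), UQCR11 (chr19:1605463-1605602, minus strand) and COX6A1 (chr12:120437863-120437963, plus strand), with COX8C (chr14:93347082-93347181, plus strand) as the testis counterpart of COX8A.
COX5B: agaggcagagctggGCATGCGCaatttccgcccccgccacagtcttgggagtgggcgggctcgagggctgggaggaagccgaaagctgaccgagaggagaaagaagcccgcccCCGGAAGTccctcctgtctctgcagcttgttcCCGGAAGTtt
COX8A: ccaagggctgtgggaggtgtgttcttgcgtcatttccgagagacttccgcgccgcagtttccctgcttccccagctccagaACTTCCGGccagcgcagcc
UQCR11: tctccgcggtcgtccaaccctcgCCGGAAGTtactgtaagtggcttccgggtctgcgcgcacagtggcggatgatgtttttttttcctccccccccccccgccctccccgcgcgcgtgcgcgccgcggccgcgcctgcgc
COX6A1: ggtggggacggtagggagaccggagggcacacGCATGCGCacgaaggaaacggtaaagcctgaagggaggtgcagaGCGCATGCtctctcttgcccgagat
COX8C: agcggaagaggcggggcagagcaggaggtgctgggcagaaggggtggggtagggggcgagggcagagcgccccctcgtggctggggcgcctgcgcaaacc
COX5B held ETS sequences at -37 and -5 and an NRF1 sequence at -136, and COX6A1 held NRF1 sequences at -218 and -174, and neither had a peak of either protein. The other unbound genes with an ETS sequence were UQCRQ, SDHD, COX10, COX14, ATP5MK and ATP5PD. COX8A and COX8C differed in that the ETS sequence of COX8A (-19) was not found in COX8C, and no tissue-restricted isoform held any of the 4 sequences.

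**Figure D4:**
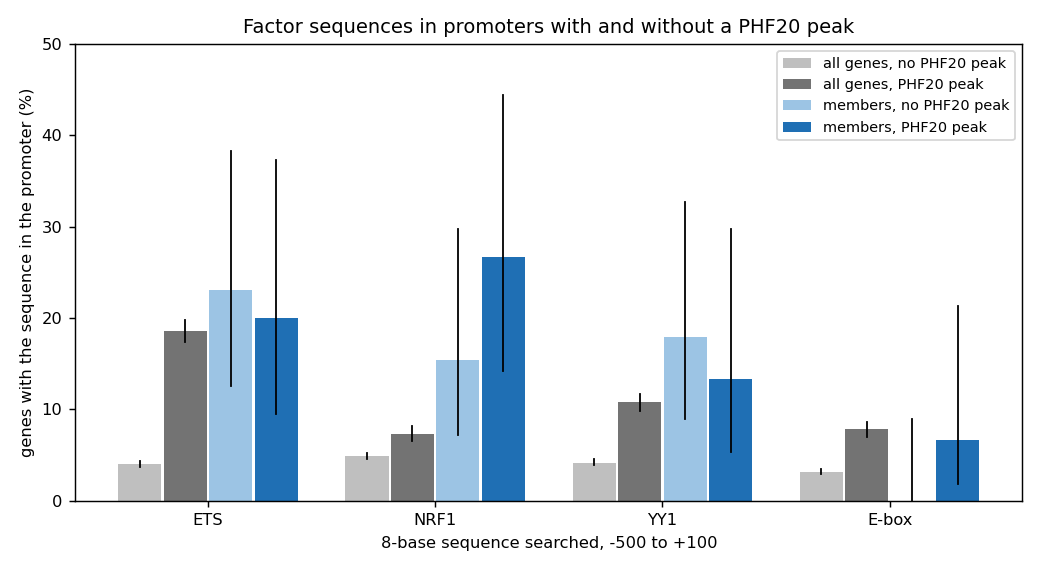
Percentage of promoters (500 bp before to 100 bp after the canonical TSS) that hold each of the 4 sequences, for all nuclear protein-coding genes (grey) and the 69 genes (blue), without (light) and with (dark) a PHF20 peak, with Wilson 95% intervals as black lines. The ETS share is 4% and 18.6% in the grey bars and 23.1% and 20% in the blue bars, whose intervals overlap.

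Genes of the same complexes with other names were counted in the same way. A list of 37 further genes of complexes III to V held 20 with a PHF20 peak (54.1%, 38.4% to 69%, against 20.7% of all genes). It held 5 with a PHF20L1 peak (13.5%, 5.91% to 28%, against 3.82% of all genes). Over all genes with CpG-rich promoters these shares were 29.4% and 5.32%. By complex, 1 of 6 genes of complex III was bound (BCS1L, which inserts the Rieske protein), 15 of 24 of complex IV and 4 of 7 of complex V. The 5 with PHF20L1 were COA6 (copper delivery to complex IV), TACO1 (translation of COX1), LRPPRC (mitochondrial mRNA stability), and TMEM70 and TMEM242 (ATP synthase assembly). All 5 are assembly or expression factors, as were 33 of the 37 genes listed, which gives 5 of 33 (15.2%, 6.65% to 30.9%). All 5 also had PHF20 peaks, as did 747 of the 766 genes with a PHF20L1 peak among all genes. Among the 33 assembly and expression factors of this list, 19 were bound by PHF20 (57.6%, 40.8% to 72.8%), and CYCS (cytochrome c) and CYC1 (the cytochrome c1 subunit of complex III) had no peak. In complex I, 24 of 48 NDUF genes were bound by PHF20 (50%, 36.4% to 63.6%, against 20.7% of all genes). PHF20L1 was found at 4 of them (8.33%, 3.29% to 19.6%, against 3.82% of all genes). PHF20 was found at 5 of 8 NDUFAF assembly factors (62.5%, 30.6% to 86.3%) and at 19 of 40 other NDUF genes (47.5%, 32.9% to 62.5%). All these intervals overlap that of the 69 genes.

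Of 13 genes that encode regulators of the respiratory chain, 7 had a PHF20 peak (53.8%, 29.1% to 76.8%). The share was 20.7% over all genes and 29.4% over all genes with CpG-rich promoters, the latter inside the interval. The 7 genes were the factors NRF1, GABPA, GABPB1, GABPB2 and ESRRA, the coactivator PPRC1 and the mitochondrial transcription factor TFB2M. GABPA, through the peak it shares with ATP5PF, and GABPB2 also had PHF20L1 peaks. That is 2 of 13 (15.4%, 4.33% to 42.2%), against 3.82% of all genes. YY1, the coactivators PPARGC1A and PPARGC1B, and the mitochondrial transcription genes TFAM, TFB1M and POLRMT had no peak of either protein.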

How the data were processed

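The data were HA ChIP-Seq libraries of U2OS cells (8 in all, inputs included). Per the study's methods and the submitters' processing notes, reads were mapped to hg38 with Bowtie 1.1.2, unique reads were retained without duplicates, peaks were called with MACS2 2.2.7.1 against input, blacklisted regions were removed, and peaks of the best replicate that overlapped those of the other replicates formed the list of each protein. A PHF20 replicate that failed peak calling had been dropped by them. The values deposited by the authors are positions in bp, with no score, height or read count, so depth could not be taken from the files and narrow or weak sites may be missing. No other columns of per-sample values were present.

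Peaks were compared with GENCODE release 44, later than the release the authors used, whose TSSs may differ. An overlap of at least 1 bp with the promoter window counted, and coordinates are counted from 1. CpG ratios and sequences were taken from 500 bp before to 100 bp after the canonical TSS in hg38. Because the lists hold no replicate values, counts and widths carry no test, only Wilson 95% intervals, and a count of 0 is given with the share that 3 counts would make. Full values were given for members with PHF20L1 peaks, the 3 widest PHF20 peaks of each complex, the COX isoform pairs, the ATP5MC genes and the retrocopies, and all members could be named. The members, gene lists and sequences were chosen with earlier results of these data known. Alternatives changed the TSS set, window, overlap rule, minimum width and sequence window or length, and the canonical TSS and nearest-gene rules were added after seeing the data. The tools were matplotlib 3.10.9, samtools 1.23.1, pysam 0.24.0, scipy 1.17.1, numpy 2.4.6 and Python 3.11.15, and the overlap steps were tested on simulated data.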

Additional observations from a re-analysis of the deposited data

How the results depend on the processing

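The count of 30 genes with a PHF20 peak ranged from 25 to 30 over the alternatives, and 19 genes were bound under all of them. These 19 include UQCC6, COX16 and ATP5F1A. With the outermost TSS, these genes counted only through their second peaks, far from the canonical TSS, and the main peaks were not reached. The PHF20 share was 36.2% to 43.5% in the 69 genes, while that of all genes was 12.1% to 21.4%. It was above that of all genes under each alternative. The PHF20L1 share, 5.8% against 3.82% of all genes, fell below the share of all genes with the outermost TSS (2.9% against 3.21%) and was above it under the other alternatives. With the outermost TSS, PHF20L1 and both proteins were each found at 2 of the 69 genes, at 0 genes of complex III, 1 of complex IV and 1 assembly factor. With peaks no narrower than the list median, PHF20L1 was found at 1 gene of complex IV, 2 of the other complex genes, 2 NDUF genes and 423 genes in all, and PHF20 at 13 of the other complex genes and 2416 genes in all. With peaks of at least 300 bp, PHF20L1 was found at 1 gene of complex IV, 2 of the other complex genes and 455 genes in all. TSSs of protein_coding transcripts and the canonical TSS each gave 3 of the other complex genes for PHF20L1. The nearest-gene rule gave 0 for complex V and 0 for subunits. The canonical TSS and nearest-gene rules were chosen after seeing the data. Searching only the central 6 bases raised the genes with ETS, YY1 and E-box matches to 36, 24 and 12. These rules use fewer starts, keep fewer peaks, count a peak for its nearest gene only or search shorter sequences. The cause of each change was not tested. No paired analysis was possible because each final list merges its replicates and holds positions only, and for the same reason no replicate could be left out. Library depth is not in the files, and its part in the shorter PHF20L1 list was not tested.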

Other observations

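ATP5IF1, the ATPase inhibitor, was the only gene without a promoter peak of either protein that had a peak of either within 5000 bp of its canonical TSS. It was a PHF20L1 peak at chr1:28232940-28233153 (214 bp, hg38), -2971 bp from the TSS, and its centre lay 18 bp from the TSS of DNAJC8, a DNAJ-family gene. It overlapped 0 PHF20 peaks, unlike the 4 PHF20L1 peaks at the genes above, and the nearest PHF20 peak lay 92034 bp downstream of the ATP5IF1 TSS. Over all genes, 19 had a promoter peak of PHF20L1 and none of PHF20.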
